A study of Homo sapiens with 6 samples.

Results

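The genes described here are 42 genes of the death receptor and caspase pathways: death receptors and a ligand, the adaptors and kinases that dock on them, caspases, the genes that hold caspases in check, and the nucleases and BCL2 family genes that act beside them. They were chosen by gene symbol for their place in these pathways, with earlier results of these data known. Of the 42, 39 had a probe set annotated with their symbol alone, among 19775 such genes on the array. RIPK1, BIRC3 and TRAF2 did not, and were not analysed here. A member's value is that of the probe set with the highest mean log2 value over the 6 arrays.

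The arrays came from K562, an established human line from a chronic myeloid leukaemia that carries the BCR-ABL1 fusion and lacks functional p53. The 3 calactin arrays held RNA of K562 cells given 0.15 mM calactin for 12 h, and the 3 untreated arrays RNA of K562 cells kept without drug for 12 h. Calactin is a cardenolide of milkweeds, a class of plant steroids that block the sodium pump. The dose and its unit rest on the labels alone, and the labels name no vehicle for the untreated cells. They call the samples biological replicates without naming the cultures, so p-values measure the spread between these samples, whatever its source. The number of arrays limits the precision.

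Death receptors at the cell surface bind ligands such as TRAIL and recruit the adaptor FADD, which gathers initiator caspases into a signalling complex, and CFLAR competes for the same place. Inside the cell, cytochrome c released from mitochondria joins APAF1 to activate CASP9. Inhibitor of apoptosis proteins (IAPs) bind active caspases or mark partners with ubiquitin, and mitochondrial proteins such as DIABLO and HTRA2 displace them. All values below are messenger RNA signals and say nothing of cleavage or activity of the proteins.

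After calactin, 15 of the 39 measured members fell, 1 rose and 23 did not pass the test (limma, Benjamini-Hochberg adjusted p under 0.05 over 19775 genes). Over all genes, 16.5% fell and 4.93% rose. With the replicate number as a block, 15 fell and 3 rose, CRADD and CASP2 being added, against 20.2% and 7.09% of all genes. The falls were led by FADD, DAXX, TNFRSF10B, APAF1 and CFLAR, each down by over 1 on the log2 scale, and the rise was that of TNFAIP3. By role, 4 of 6 adaptors and kinases, 3 of 4 genes for nucleases or their inhibitor and both IAP antagonists fell. Scaling to spiked-in RNA turned both antagonists and 1 nuclease, ENDOG, positive. ENDOG and the antagonist DIABLO also lost their calls with quantile normalization. Of 6 caspases, 1 fell (16.7%), near the 16.5% of all genes. Of 3 IAPs, 0 passed the limma test on the chosen probe sets. An unadjusted limma p under 0.05 was found for 0 of them, against 30.9% of all genes. So few genes cannot show that a role was spared, and scaling to spiked-in RNA called all 3 IAPs higher, against 35.4% of all genes. The median log2 difference, calactin minus untreated, was -0.19 over the 39 members and -0.06 over all genes. All differences are on the log2(intensity + 16) scale, which understates the change of dim genes.

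The counts depended on how the arrays were scaled. They were also taken without replicate number 3, whose spiked-in control RNA stood apart in both groups. Quantile normalization gave 10 falls and 2 rises among members, against 12.1% and 8.38% of all genes. When arrays were scaled by their poly-A spikes, in a fit with replicate number as a block, there were 5 falls and 15 rises. The shares of all genes were 5.56% and 35.4%. The median difference was 0.32 both for the members and for all genes. Dim genes moved less under this scaling and were rarer among the members, so these medians are not like for like. Replicates 1 and 2 alone, a fit with fewer arrays, gave 6 falls and 1 rise, against 7.09% and 1.68% of all genes.

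Genes with a signal above the median were called more often than others, and most members were among them. Of the 39, 30 lay above the median signal of all genes, and of these 14 (46.7%) fell and 1 rose. Of all 9887 genes above that median, 29.3% fell and 9.1% rose. The median difference was -0.22 for these members and -0.13 for all such genes. No test of the members as a set was made. The calactin and untreated arrays did not overlap for 20 members, 18 of them lower, against 34.7% of all genes without overlap in either direction. The share of all genes both lower and without overlap was not computed, nor the share among genes above the median signal. The 18 therefore have no share to be set against. For the 16 called members the groups did not overlap, which their selection by adjusted p makes likely. Non-overlap in turn fixes the sign within each of the 3 replicate numbers, so neither adds support to the calls. Each array measured RNA of a whole culture, so fewer cells holding a transcript and less transcript per cell cannot be told apart.

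**Figure D1:**
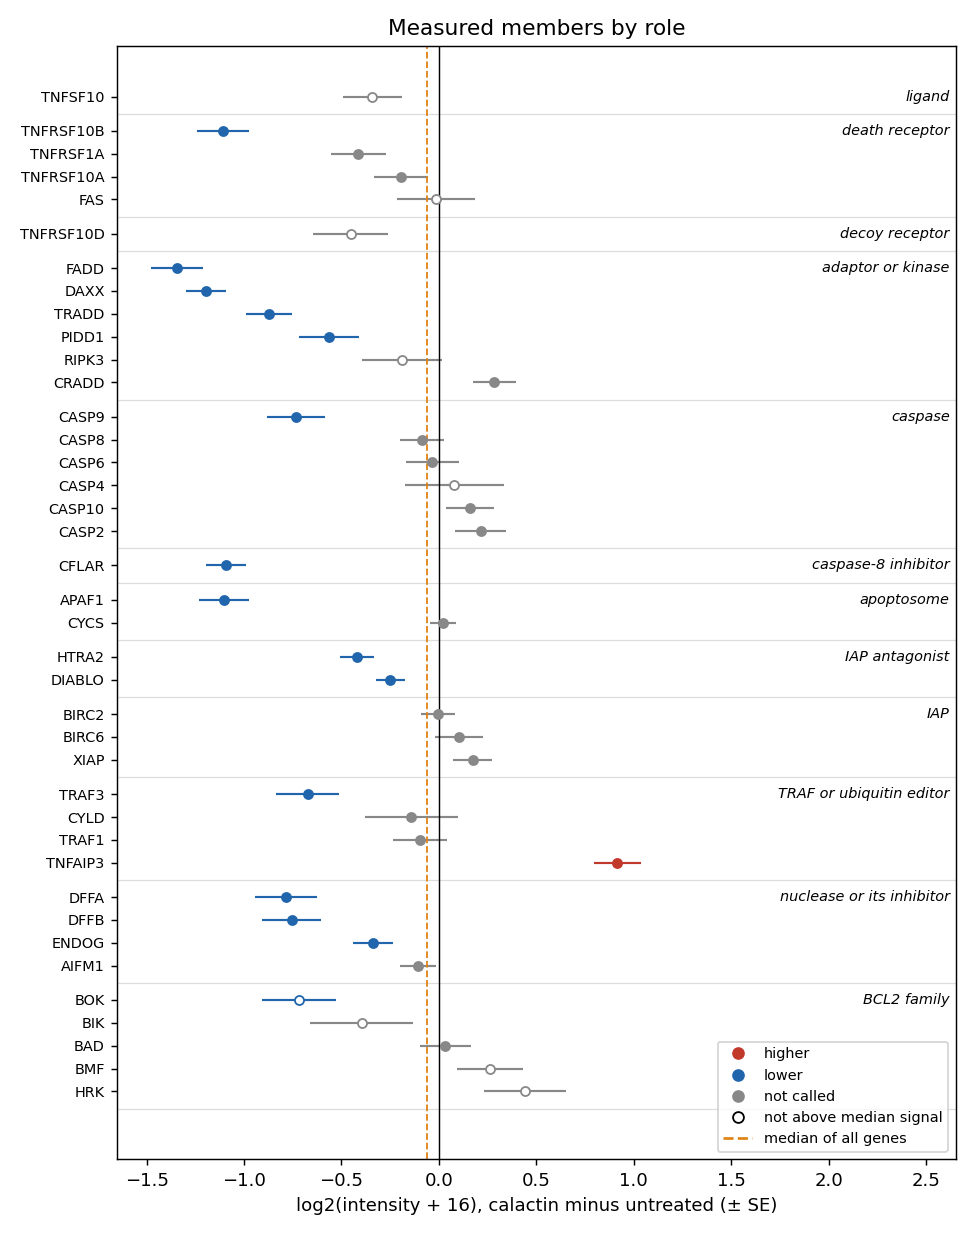
Log2 difference (calactin minus untreated, log2(intensity + 16)) of the 39 measured members, ordered by role, with bars of 1 standard error. Coloured points passed the test and open points lay at or below the median signal. With the arrays as deposited, the 15 falls sit left of the line at 0 and TNFAIP3 alone is coloured to its right, while the caspases and IAPs, apart from CASP9, lie between -0.09 and 0.21.

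Among the death receptors, TNFRSF10B fell and the other 3 did not pass the test. TNFRSF10B is the TRAIL receptor DR5. It had intensities of 350.4, 308.3 and 393.1 on the calactin arrays, against 663.9, 881.0 and 780.4 on the untreated arrays. Every calactin array lay well below every untreated one, a 2.15-fold lower level (log2 -1.11 ± 0.13 SE, adjusted p = 0.000579). TNFRSF10A, the sister TRAIL receptor DR4, averaged 250.8 ± 30.0 with calactin and 288.9 ± 33.6 in untreated cells (SD, n = 3 each), and the groups overlapped (log2 -0.19 ± 0.14). TNFRSF1A, the main receptor for TNF, had 271.4, 360.6 and 297.3 with calactin, against 471.4, 371.3 and 409.1 in untreated cells. These groups did not overlap, but the difference missed the threshold (log2 -0.41 ± 0.14, adjusted p = 0.0699). It passed without calactin replicate 2 (log2 -0.52, adjusted p = 0.0467), and when only genes above the median signal were tested (adjusted p = 0.0287). With quantile normalization TNFRSF1A was at -0.22 (adjusted p = 0.34), and under poly-A spike scaling at 0.13 (adjusted p = 0.513). FAS, TNFSF10, which encodes TRAIL itself, and TNFRSF10D, a decoy receptor for TRAIL, lay at or below the median signal, at 5.3 to 42.6 over the 6 arrays, and none passed the test.

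FADD had the largest fall of all measured members. FADD carries a death domain that binds the receptors and a death effector domain that binds initiator caspases. Its intensities were 270.5, 384.6 and 296.1 with calactin, against 784.7, 862.9 and 818.2 in untreated cells. The highest calactin array was below the lowest untreated one, and the level was 2.54-fold lower (log2 -1.35 ± 0.13, adjusted p = 0.00025).

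DAXX, a death domain binding protein that also acts as a histone chaperone in the nucleus, had 361.8, 367.2 and 415.1 with calactin, against 965.3, 832.5 and 881.6 in untreated cells. The groups were far apart, at 2.29-fold lower with calactin (log2 -1.19 ± 0.10, adjusted p = 0.000136). TRADD links the TNF receptor to FADD and RIPK1. TRADD gave 126.3, 122.9 and 139.1 with calactin, against 247.6, 249.4 and 253.0 in untreated cells. The untreated arrays were almost level, and calactin was 1.83-fold lower (log2 -0.87 ± 0.12, adjusted p = 0.00103).

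PIDD1 and CRADD form, with CASP2, the complex known as the PIDDosome. PIDD1, its scaffold, had 167.4, 139.7 and 146.4 with calactin, against 281.7, 202.7 and 214.7 in untreated cells. The groups did not overlap and the fall passed the test (log2 -0.57 ± 0.16, adjusted p = 0.0307). That call was narrow: leaving out any 1 array other than untreated replicate 2 gave adjusted p of 0.0505 to 0.108. CRADD, the adaptor between them, averaged 987.1 ± 142.8 with calactin and 802.9 ± 25.6 in untreated cells, and CASP2 averaged 1523.4 ± 238.4 with calactin and 1306.6 ± 150.6 in untreated cells. Neither passed the test (log2 0.28 ± 0.11 with adjusted p = 0.117 for CRADD, and 0.21 ± 0.13 with adjusted p = 0.327 for CASP2). With the replicate number as a block both did, at adjusted p = 0.0364 for CRADD and 0.0358 for CASP2. CRADD also passed with quantile normalization and no block (log2 0.43, adjusted p = 0.0294). The remaining adaptor, RIPK3, the kinase of necroptosis, lay at or below the median signal at 26.7 to 53.5 and was not called.

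**Figure D2:**
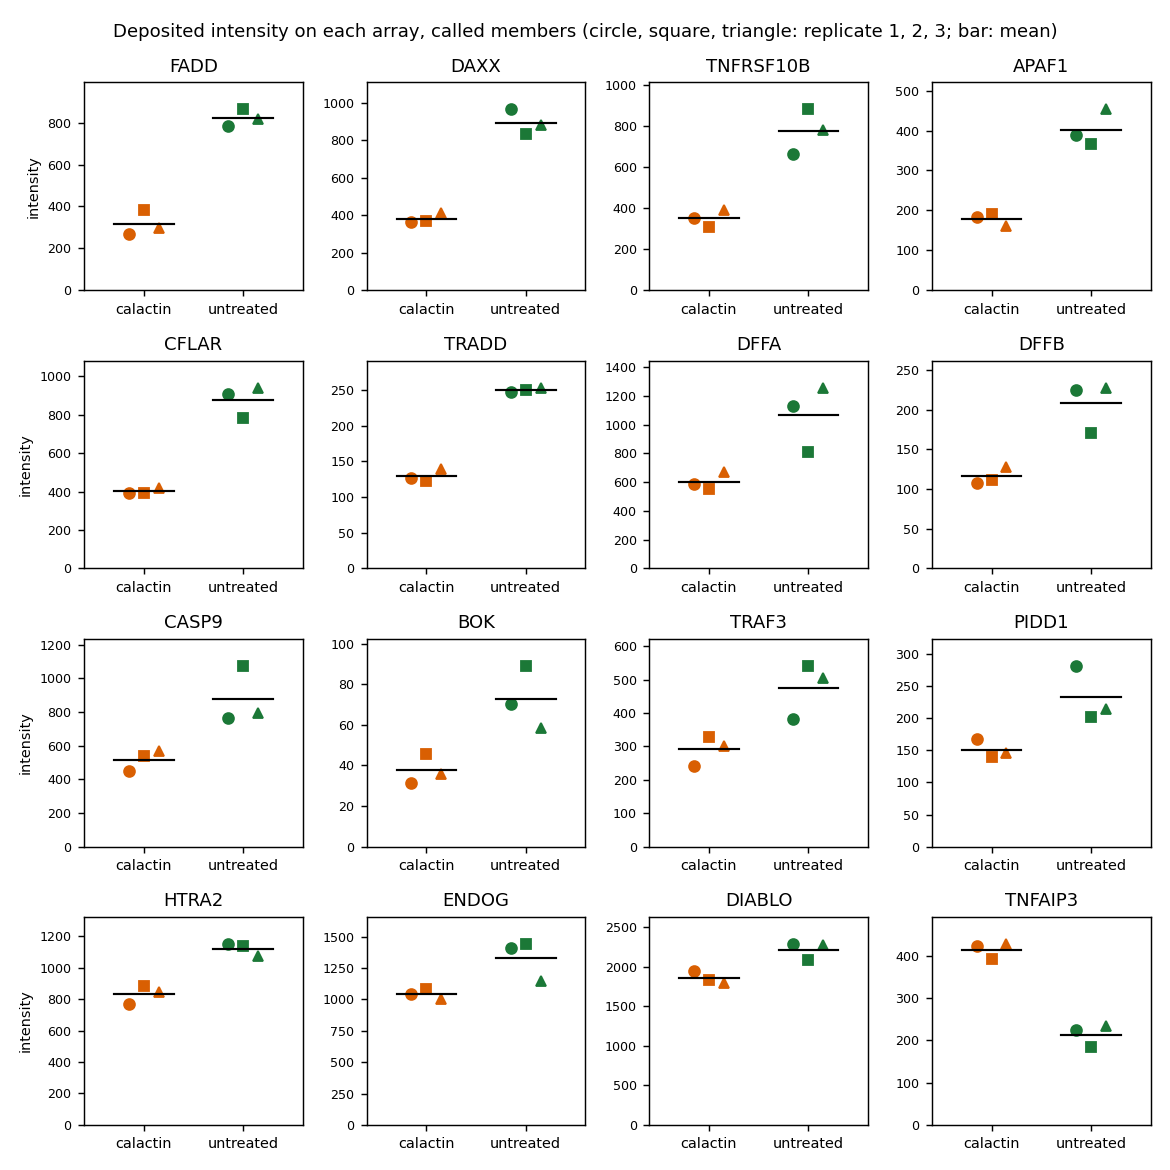
Deposited intensity (linear axis from 0) of the 16 called members on each of the 3 calactin and 3 untreated arrays, with the replicate number as symbol and the group mean as a bar. In every panel the groups are apart, with calactin lower except for TNFAIP3, and the fold is smallest for DIABLO, ENDOG and HTRA2.

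Of the 6 caspases, 1 fell. CASP9, the initiator caspase of the mitochondrial route, had 448.9, 537.0 and 567.5 with calactin, against 762.4, 1074.4 and 791.9 in untreated cells. The groups did not overlap, though the untreated arrays were spread widely (log2 -0.73 ± 0.15, adjusted p = 0.00771, 1.66-fold lower). CASP8, the initiator of the receptor route, averaged 273.1 ± 9.4 with calactin and 291.8 ± 23.3 in untreated cells, a difference within the spread (log2 -0.09 ± 0.11). CASP10, a related initiator, averaged 235.1 ± 11.4 with calactin and 209.4 ± 22.6 in untreated cells (log2 0.16 ± 0.12). CASP6, an executioner, averaged 966.4 ± 98.8 with calactin and 997.0 ± 178.8 in untreated cells (log2 -0.04 ± 0.14), and neither passed the test. CASP4, an inflammatory caspase, lay at 8.2 to 27.7 and was not called. Under poly-A spike scaling with its block, CASP2, CASP10, CASP6 and CASP8 were called higher, as were 35.4% of all genes, and CASP9 was not called.

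CFLAR, known as c-FLIP, resembles CASP8 without its catalytic activity and limits its activation. Its brightest probe set had 392.2, 393.4 and 421.0 with calactin, against 910.2, 783.2 and 941.4 in untreated cells. Every calactin array was less bright than every untreated one by a wide margin, 2.13-fold on average (log2 -1.09 ± 0.10, adjusted p = 0.000186). With the arrays as deposited, FADD and CFLAR thus both had lower signals, while CASP8 and CASP10 did not pass the test.

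In the apoptosome, APAF1 fell and CYCS did not pass the test. APAF1 is the scaffold that oligomerises around cytochrome c. It had 183.0, 191.2 and 160.8 with calactin, against 388.6, 365.9 and 452.9 in untreated cells. The groups were clearly separate, at 2.15-fold lower (log2 -1.10 ± 0.13, adjusted p = 0.000468). CYCS, which encodes cytochrome c, ranged from 9969.9 to 11073.0 with calactin and from 9532.9 to 10876.6 in untreated cells (log2 0.02 ± 0.07).

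With the arrays as deposited, the IAPs stayed within or near the spread of the arrays on their chosen probe sets. Under poly-A spike scaling with its block, XIAP (log2 0.74), BIRC2 (0.56) and BIRC6 (0.66) were called higher, as were 35.4% of all genes. BIRC2, a ubiquitin ligase of TNF receptor complexes, averaged 1523.3 ± 65.8 with calactin and 1530.6 ± 130.6 in untreated cells (log2 -0.00 ± 0.09). BIRC6, a very large ubiquitin-conjugating IAP, averaged 721.2 ± 75.7 with calactin and 671.9 ± 85.5 in untreated cells (log2 0.10 ± 0.12). XIAP, which blocks CASP9 directly, averaged 840.6 ± 87.6 with calactin and 741.2 ± 24.5 in untreated cells (log2 0.17 ± 0.10, adjusted p = 0.292). The IAP antagonists both fell by little, and both turned positive under poly-A spike scaling. HTRA2, a mitochondrial serine protease, averaged 834.8 ± 58.5 with calactin and 1121.7 ± 40.2 in untreated cells (log2 -0.42 ± 0.09, adjusted p = 0.00799). Its other probe set was at -0.10 and overlapped between groups, and the mean of both was not called (log2 -0.26, adjusted p = 0.0508). DIABLO averaged 1859.3 ± 79.0 with calactin and 2215.6 ± 116.9 in untreated cells (log2 -0.25 ± 0.07, adjusted p = 0.042). For DIABLO, leaving out any 1 array other than untreated replicate 2 gave adjusted p of 0.0599 to 0.142, which ended the call. Quantile normalization (adjusted p = 0.18), median centring (0.0994) and eBayes without a trend (0.147) ended the call of DIABLO too.

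For XIAP the call depended on the probe set. Of its 7 probe sets, 4 were called higher, 0 lower and 3 not called, and the differences of all 7 were positive, at 0.17 to 0.83. The chosen probe set was not among the 4. On the one of the 4 whose identifier marks no shared sequence, XIAP had 682.3, 604.3 and 571.0 with calactin, against 383.4, 446.6 and 333.4 in untreated cells. The groups did not overlap there, and the rise passed the test over all probe sets (log2 0.66 ± 0.13, adjusted p = 0.00892). On another of the 4 the intensities were 805.1, 1025.9 and 1255.4 with calactin, against 458.1, 713.8 and 548.6 in untreated cells (log2 0.83 ± 0.19, adjusted p = 0.0224). That probe set would have stood for XIAP had the mean been taken of the intensities themselves and not of their log2 values, and XIAP would then have been called higher (adjusted p = 0.0148). The mean of all 7 was called higher too (log2 0.57, adjusted p = 0.0057). XIAP therefore cannot be given as unchanged from its chosen probe set.

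**Figure D3:**
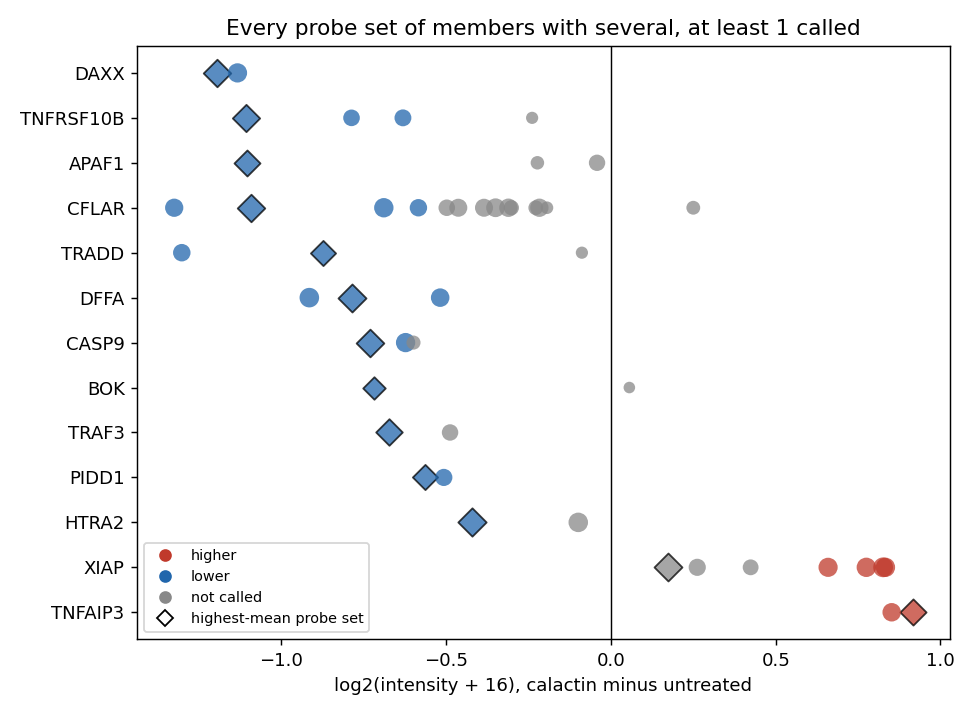
Log2 difference (calactin minus untreated, log2(intensity + 16)) of every probe set of the members that have several and at least 1 called, with larger points for brighter probe sets and a diamond for the probe set with the highest mean. XIAP has 4 probe sets called higher although its diamond is grey, and CFLAR runs from -1.33 to 0.25.

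Over all 39 members there were 113 probe sets, of which 24 fell and 6 rose in a fit over 54613 probe sets. In that fit 10.3% of all probe sets fell and 3.68% rose. For 0 of the 28 members with several probe sets were these called in opposite directions, and the 6 that rose were those of TNFAIP3 and XIAP. CFLAR had 14 probe sets: 4 fell, 10 were not called, and 13 of the differences were negative, at -1.33 to -0.19. The identifiers of 10 of them mark sequence shared with other transcripts, and the other 4 reached at most 61.2 on any array and were not called. With such unshared probe sets put first, CFLAR was not called (log2 -0.30, adjusted p = 0.496). The splice forms of CFLAR, which differ in their effect on CASP8, cannot be told apart from these identifiers. CASP9 lost its call there too (log2 -0.60, adjusted p = 0.18). APAF1 rested on 1 called probe set of 3, with the other 2 at 6.2 to 92.2 on the arrays. Averaged over their probe sets, CFLAR (-0.46), APAF1 (-0.46) and TNFRSF10B (-0.69) fell by less and were still called. For DAXX, DFFA and PIDD1 every probe set fell, and TNFRSF10B had 3 of 4 and TRADD 2 of 3 called lower. The second TRADD probe set was lower by more than the chosen one (87.0, 82.3 and 73.4 with calactin, against 206.0, 224.0 and 238.5 in untreated cells, log2 -1.30 ± 0.13).

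TNFAIP3 is the ubiquitin editor A20 that curbs TNF receptor signalling to NF-kB and is itself a textbook NF-kB target. With the arrays as deposited and no replicate block, it was the only member called higher on its chosen probe set. Its intensities were 423.8, 392.3 and 427.6 with calactin, against 223.2, 183.0 and 233.1 in untreated cells. All calactin arrays were above all untreated arrays, at 1.89-fold higher (log2 0.92 ± 0.12, adjusted p = 0.00098). The second probe set rose as well (log2 0.85). TRAF3, an adaptor that restrains the noncanonical NF-kB route, had 242.6, 329.4 and 301.9 with calactin, against 380.7, 541.2 and 505.9 in untreated cells. The groups were apart by less than the spread within the untreated arrays, and the fall passed the test (log2 -0.67 ± 0.16, adjusted p = 0.0175). On leaving out replicate 1 or 3 of the calactin group, or 2 or 3 of the untreated group, TRAF3 had adjusted p of 0.0525 to 0.0823 and was not called. With the replicate number as a block it had 0.00083. TRAF1 averaged 103.8 ± 5.7 with calactin and 112.2 ± 8.8 in untreated cells (log2 -0.10 ± 0.14). CYLD, a deubiquitinase of the same complexes, ranged from 60.8 to 107.8 with calactin and from 64.5 to 115.4 in untreated cells (log2 -0.14 ± 0.24), and neither was called.

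Since TNFAIP3 moved against the other 15 called members and is a known NF-kB target, the bases before its start were set beside those of TRAF3 and FADD. Among the 12 called members that had a RefSeq promoter, TRAF3 was the only one besides TNFAIP3 with a match. FADD was the member with the largest fall and held no match. The pattern was a form of the kappaB site, to which NF-kB dimers bind, sought on both strands of the 250 bases before each start in RefSeq promoters (GRCh38.p14). This form was chosen after the sequences had been looked at. The sequences run 5′ to 3′ on the gene's strand, here the plus strand, and capitals mark a match on either strand.
TNFAIP3: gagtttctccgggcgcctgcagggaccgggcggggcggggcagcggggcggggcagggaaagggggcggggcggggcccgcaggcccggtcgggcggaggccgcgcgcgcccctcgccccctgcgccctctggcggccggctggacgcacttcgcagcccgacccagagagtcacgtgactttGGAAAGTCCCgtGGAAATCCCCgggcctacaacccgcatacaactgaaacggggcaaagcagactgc
TRAF3: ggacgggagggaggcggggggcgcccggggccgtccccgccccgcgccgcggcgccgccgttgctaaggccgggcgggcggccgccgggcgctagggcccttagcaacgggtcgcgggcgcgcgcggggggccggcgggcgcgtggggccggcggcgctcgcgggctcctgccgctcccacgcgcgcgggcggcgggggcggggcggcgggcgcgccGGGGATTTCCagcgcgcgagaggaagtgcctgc
FADD: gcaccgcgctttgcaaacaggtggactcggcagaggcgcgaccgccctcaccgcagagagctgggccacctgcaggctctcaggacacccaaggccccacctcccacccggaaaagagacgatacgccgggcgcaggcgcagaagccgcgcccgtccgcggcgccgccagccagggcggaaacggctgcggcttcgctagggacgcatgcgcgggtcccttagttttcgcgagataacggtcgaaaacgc
They lie at chr6:137867009-137867258 for TNFAIP3, chr14:102777199-102777448 for TRAF3 and chr11:70203046-70203295 for FADD. TNFAIP3 held 2 matches, at -67 to -58 and -55 to -46 from the start, both on the minus strand. TRAF3 held 1 at -33 to -24. Counted per promoter, 1.73% of 35093 RefSeq promoters held the pattern. Counted per gene, 33 members had 60 RefSeq promoters between them, and 4 members held a match in at least 1: TNFAIP3, TRAF3, BIRC3 and CYLD. The share of all genes with such a match was not computed, so this count cannot be set against the 1.73%. A stricter form of the site, held by 0.18% of promoters, matched once in TNFAIP3 and once in CYLD and not in TRAF3. TNFAIP3 was looked at because it rose and the form was chosen afterwards, so its matches support nothing. CYLD was not called, TRAF3 fell and TNFAIP3 rose, so the match went with no single direction among them. A match describes letters and shows no binding.

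Of the genes for nucleases and their inhibitor, 3 of 4 fell, of which ENDOG turned positive and DFFA and DFFB lost their calls under poly-A spike scaling. DFFB is the caspase-activated DNase that cuts DNA between nucleosomes, and DFFA is its chaperone and inhibitor, which caspases cleave. DFFA had 585.4, 550.0 and 671.6 with calactin, against 1125.4, 812.1 and 1256.1 in untreated cells. DFFB had 107.8, 111.9 and 127.9 with calactin, against 224.7, 171.1 and 227.8 in untreated cells. In both, untreated replicate 2 was the lowest untreated array and still lay above every calactin array. DFFA was 1.73-fold lower (log2 -0.79 ± 0.16, adjusted p = 0.00747) and DFFB 1.69-fold lower (log2 -0.76 ± 0.15, adjusted p = 0.00748). ENDOG, a mitochondrial nuclease, averaged 1044.4 ± 39.9 with calactin and 1331.4 ± 163.3 in untreated cells and passed narrowly (log2 -0.34 ± 0.10, adjusted p = 0.0473). Leaving out any 1 array other than untreated replicate 3 ended the call of ENDOG, at adjusted p of 0.0954 to 0.151. Quantile normalization (adjusted p = 0.256) and median centring (adjusted p = 0.1) ended it too. AIFM1, a mitochondrial flavoprotein that moves to the nucleus in caspase-independent death, averaged 1223.0 ± 73.1 with calactin and 1320.6 ± 117.2 in untreated cells and was not called (log2 -0.11 ± 0.09).

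Of the 5 BCL2 family members, 1 fell. BOK, a relative of BAX and BAK1, had 31.2, 45.8 and 35.8 with calactin, against 70.1, 89.1 and 58.5 in untreated cells. The groups did not overlap, but the signal was at or below the median of all genes (log2 -0.72 ± 0.19, adjusted p = 0.0263, 1.65-fold lower). Its call ended on leaving out replicate 1 or 3 of the calactin group, or 1 or 2 of the untreated group, with adjusted p of 0.0705 to 0.096. Its other probe set, at 1.0 to 11.5 on the arrays, gave 0.06. BAD, a BH3-only gene controlled by growth factor kinases, averaged 235.9 ± 3.7 with calactin and 231.7 ± 33.5 in untreated cells (log2 0.03 ± 0.13). The BH3-only genes BIK, BMF and HRK lay at or below the median signal, at 1.0 to 74.3, and were not called.

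Scaling to the poly-A spikes moved bright genes by more than dim ones and changed several calls. The poly-A spikes are bacterial transcripts added to the RNA before labelling. Their mean intensity was 1459.2, 1722 and 139.5 with calactin, against 1941.9, 2633.8 and 174.6 in untreated cells. It was lower with calactin in each replicate number and far lower in number 3 of both groups. The scaling used the mean of the log2 spike values within each replicate number, not these means. Its log2 factors were 0.274, 0.37 and 0.215 for calactin replicates 1, 2 and 3, and -0.274, -0.37 and -0.215 for the untreated ones. Scaled to these spikes, with the replicate number as a block, the median of all genes was 0.32 in place of -0.06. FADD (-0.79), DAXX (-0.64), TNFRSF10B, CFLAR and APAF1 were the 5 members still called lower there. TNFAIP3 was at 1.46 and was called higher. So were CRADD, CASP2, CASP10, CYCS, XIAP, BIRC6, BAD, BMF and HRK, all above 0 as deposited too. CASP9, TRADD, TRAF3, PIDD1, DFFA, DFFB and BOK remained below 0 and were not called. Of 28 members below 0 as deposited, 13 turned to positive values: DIABLO, CASP6, CASP8, BIRC2 and AIFM1, which were called higher there, and HTRA2, ENDOG, TNFRSF1A, TNFRSF10A, FAS, RIPK3, TRAF1 and CYLD, which were not called. CYCS, a bright member, went from 0.02 to 0.59, and BIK, a dim one, from -0.40 to -0.19, as the pseudocount was added after scaling. The median of all genes, which includes the dim ones, moved by less than the bright members did. It is therefore only a rough reference for them. The direction of a small fall holds only for the arrays as deposited and the scalings close to them. Averaging the probe sets of each gene gave 12 falls and 2 rises, against 14.4% and 4.03%, and choosing the probe set by its mean intensity 15 and 2, against 16.6% and 4.98%. Which scaling is nearer to RNA per cell was not tested.

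**Figure D4:**
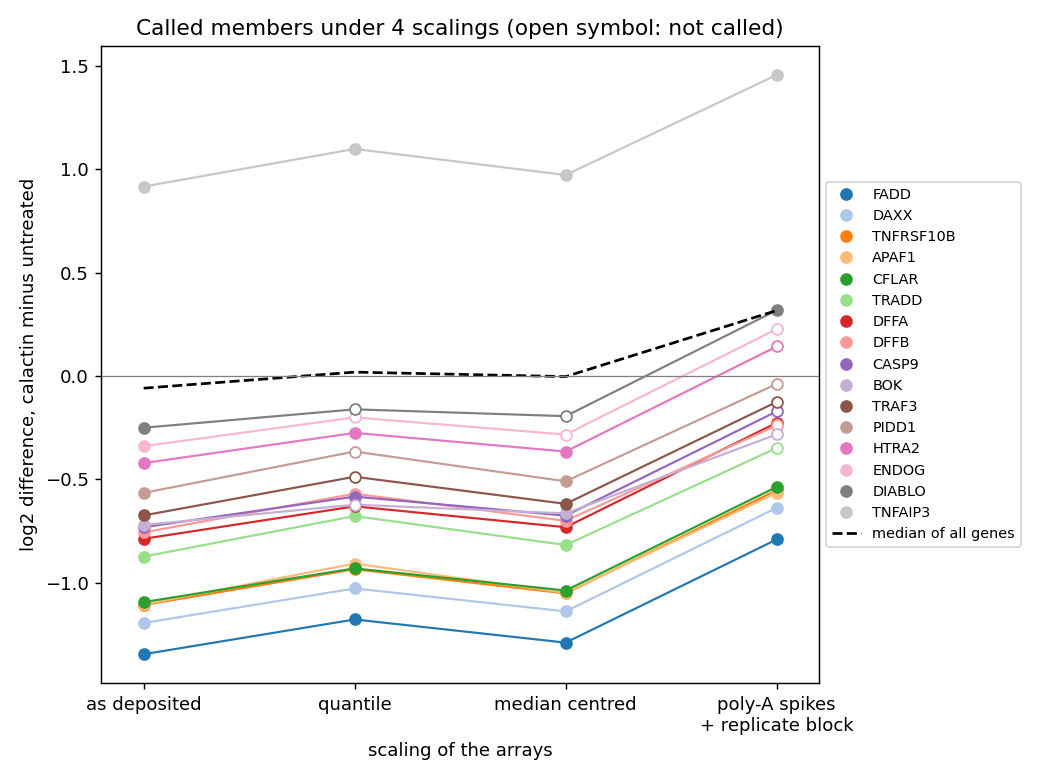
Log2 difference (calactin minus untreated) of the 16 called members with the arrays as deposited, quantile normalised, median centred and scaled to the poly-A spikes with a replicate block. Open symbols did not pass the test, and the dashed line is the median of all genes, at -0.06 as deposited and 0.32 with the spikes. FADD, DAXX, TNFRSF10B, APAF1 and CFLAR stay called and lower under all 4 scalings, and TNFAIP3 called and higher.

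Other genes of the same pathways were read from a list of 58, of which 52 were measured. Of these, 17 fell, 4 rose and 31 did not pass the test, beside the 16.5% and 4.93% of all genes given above. Poly-A spike scaling with its block gave 9 falls and 20 rises in this list, against 5.56% and 35.4% of all genes, and quantile normalization 14 and 7, against 12.1% and 8.38%. The block without the spikes gave 17 falls and 7 rises, against 20.2% and 7.09%. The 8 with the largest changes all fell. SERPINB9, the inhibitor of granzyme B, averaged 129.5 ± 7.7 with calactin and 706.7 ± 61.9 in untreated cells, 4.96-fold lower (log2 -2.31 ± 0.12, adjusted p = 3.9e-05). TNFRSF21, the death receptor DR6, averaged 16.7 ± 4.1 with calactin and 96.6 ± 3.2 in untreated cells (log2 -1.79 ± 0.16). TNFRSF12A, the receptor for TWEAK, fell by 1.30 ± 0.18, and TRAF5, an adaptor, by 1.48 ± 0.24 on the log2 scale. TNFRSF21 and TRAF5 lay at or below the median signal, so their size depends on the pseudocount: TNFRSF21 was at -2.49 with 1 and -0.995 with 64, and TRAF5 at -1.90 and -0.90. In replicates 1 and 2 alone TRAF5 (adjusted p = 0.0546) and FAIM (adjusted p = 0.0774) were not called, and averaged over its probe sets TRAF5 was at -0.62. PYCARD, the inflammasome adaptor ASC, fell by 1.26 ± 0.18, IKBKB, a catalytic subunit of the IkB kinase, by 1.16 ± 0.13, FAIM, an inhibitor of FAS-induced death, by 1.03 ± 0.19, and RBCK1, a part of the linear ubiquitin ligase, by 0.91 ± 0.11. The 4 that rose, named after their values were seen, were ITCH (0.71 ± 0.09), a ubiquitin ligase, BIRC5 (0.61 ± 0.07), the IAP survivin that acts in mitosis, SIVA1 (0.51 ± 0.10) and TMBIM6 (0.26 ± 0.08). Of the 5 measured ligands and the 3 measured caspases of this list, 0 passed the limma test and 0 had an unadjusted p under 0.05. Over all genes, 30.9% had such an unadjusted p. Of these ligands 0 and of these caspases 1 lay above the median signal. So few and mostly dim genes cannot show that either kind was spared.

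Among the core BCL2 genes and the NF-kB genes, calls went both ways. As deposited, 16.5% of all genes fell and 4.93% rose, while poly-A spike scaling gave 5.56% and 35.4%, and quantile normalization 12.1% and 8.38%. Of 10 measured core BCL2 genes, 3 fell and 1 rose as deposited, 0 fell and 4 rose with the spikes, and 2 fell and 2 rose with quantile normalization. The replicate block on the deposited values gave 3 falls and 3 rises among them. MCL1, which restrains BAK1, fell by 0.66 ± 0.10 on the log2 scale, and PMAIP1, the BH3-only gene NOXA that binds MCL1, rose by 0.64 ± 0.11. MCL1 lost its call with unshared probe sets first (log2 -0.03) and with the poly-A spikes (log2 -0.09). The other 2 that fell, named after their values were seen, were BID (-0.61 ± 0.09), which CASP8 cleaves, and BCL2L1 (-0.56 ± 0.16). Of 8 NF-kB subunits and inhibitors, 2 fell and 1 rose as deposited, 1 fell and 4 rose with the spikes, and 1 fell and 3 rose with quantile normalization. The replicate block gave 3 falls and 2 rises here. REL, a subunit, averaged 734.5 ± 12.0 with calactin and 290.5 ± 17.3 in untreated cells (log2 1.29 ± 0.10, adjusted p = 8.5e-05). NFKBIE, an inhibitor, fell by 1.51 ± 0.15, and NFKB2, named after its value was seen, by 0.79 ± 0.17.

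The erythroid genes known from K562 were detected. The median intensity per array lay between 31.12 and 31.97 for calactin and between 33.04 and 34.33 for untreated cells, and arrays correlated at 0.989 to 0.992 within groups and at 0.974 to 0.979 between them. Of 7 measured erythroid genes of K562, 7 lay above the median signal, with a summed intensity of 36629 to 45263 with calactin and 40212 to 45865 in untreated cells. With the arrays as deposited, GATA1 and TFRC fell and TAL1 rose among them, where 16.5% of all genes fell and 4.93% rose. Poly-A spike scaling with its block gave 0 falls and 5 rises among them, against 5.56% and 35.4% of all genes. None of 6 lymphocyte and none of 6 monocyte or neutrophil genes lay above the median signal, at most at 63.9 on any array. Of 6 epithelial or fibroblast genes, EPCAM, KRT8 and COL1A1 did, and the list summed to 5355 to 6218 with calactin, against 6349 to 7283 in untreated cells. The part of these differences in the members' values was not tested.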

How the data were processed

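Expression was measured on 1-colour Affymetrix arrays of K562 cells, 3 with calactin and 3 untreated, grouped by sample titles. The values are linear intensities per probe set as deposited by the authors. How they were summarised, background-corrected and scaled is not given in the sources used here, and the number of value columns from samples outside these groups was 0. Of 54675 probe sets, 62 were controls, and of the rest 41091 carried 1 symbol, 1801 several and 11721 none in the platform annotation, which can be old. Symbols of 41037 were looked up by gene ID in RefSeq. Per gene, the single-symbol probe set with the highest mean log2(intensity + 16) was tested with limma 3.58.1 in R 4.3.3 (lmFit, eBayes with a variance trend, two-sided), adjusted over 19775 genes by the Benjamini-Hochberg method at 0.05. No further normalization was applied.

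Members and gene lists were chosen with earlier results of these data known. Named with their arrays were members called at an absolute log2 difference of 0.5 or more. Of other genes, up to 8 called pathway genes, 2 core BCL2 genes and 2 NF-kB genes with the largest differences were named, with exceptions stated. The alternatives were quantile normalization, median centring, the 24 poly-A spike probe sets with the replicate number as a block, pseudocounts of 1 and 64, genes above the median signal, the mean of probe sets, unshared probe sets first, eBayes without a trend, the replicate block, and each array left out. Replicates 1 and 2 alone and the highest mean of the intensities themselves were added after the data were seen.

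Replicate numbers come from the titles. Deviations from group means of same-numbered arrays correlated at 0.544, 0.409 and 0.345 for numbers 1, 2 and 3 over 9887 genes. Same-numbered arrays thus shared variation, whose source the labels do not give. The main fit did not use the numbers, and the fit with them as a block is reported beside it. On simulated data over 19775 genes, the fit called 82 of 100 genes changed by 1 on the log2 scale, 98 of 100 changed by 2 and 5 of 19575 unchanged ones. The changed genes were drawn only from those above the median signal, and noise was independent between arrays. Far fewer genes were changed than were called in the data. These shares therefore do not hold for dim members or for variation shared by same-numbered arrays. Plots were drawn with matplotlib 3.10.9.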

Additional observations from a re-analysis of the deposited data

How the results depend on the processing

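Of the 16 called members, 5 kept their call and direction under all 18 alternatives: FADD, DAXX, TNFRSF10B, APAF1 and TNFAIP3. With poly-A spike scaling, fitted with the replicate block, 15 members were called higher and 5 lower. CASP6 (0.53), CASP8 (0.45), DIABLO (0.32), BIRC2 (0.56) and AIFM1 (0.46) turned positive and were called higher there. HTRA2 (0.14), ENDOG (0.23), TNFRSF1A (0.13), TNFRSF10A (0.35), FAS (0.35), RIPK3 (0.21), TRAF1 (0.40) and CYLD (0.34) turned positive and were not called there. Members called higher numbered 2 with quantile normalization (CRADD added), 2 with the mean of probe sets and 2 with the highest mean of intensities (XIAP added in both). They numbered 3 with the replicate block, which sets same-numbered arrays together (CASP2 and CRADD added). That block changed no other member's call. Replicates 1 and 2 alone gave 6 lower, with fewer samples. With 1 array left out, 10 to 13 members were called lower, against 12.1% to 15.3% of all genes, and 1 to 1 higher. BOK was at 0.056 with unshared probe sets first. The count of all genes called higher or lower under the poly-A spikes was 6998 and 1099, under quantile normalization 1657 and 2400, under the replicate block 1402 and 3992, and for replicates 1 and 2 alone 332 and 1403, against 975 and 3264 as reported. The cause of these shifts between scalings was not tested. Signal over background limits the 9 members at or below the median signal, of which 1 was called.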
